A study of Mus musculus with 9 samples.

Results

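Intronic loci without strand are 3324 intervals of the deposited expression table that lie wholly inside a protein-coding gene of the mouse GRCm38 annotation (GENCODE M21), share no base with an annotated exon, and were assigned to neither strand. They were found by position only. On each chromosome the table holds a block of plus-strand loci, a block of minus-strand loci and a last block with no strand, and of the 38550 rows of the last blocks 13981 lay inside a protein-coding gene, of which 10655 touched an exon. One row was kept per interval. The 3324 loci are 6.05% of the 54913 rows used and lie in 922 genes, called hosts here.

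RNA was sequenced from 9 mouse libraries, 3 in each of 3 groups. SSC were cells of pup testes enriched with magnetic beads for the surface marker Gfra1, before any culture (passage 0). SSCiPSC were induced pluripotent stem cell lines made from such SSC, and fiPSC were lines made from male fetal fibroblasts, both at passages 10 to 11 and cultured with LIF and DOX according to the labels. The study's methods instead describe doxycycline as withdrawn step by step and place the purification of the iPSC for the surface marker SSEA1, before expression was measured, at a later passage than the labels give. All 3 groups, SSC included, came from the strain Gt(ROSA)26Sortm1(rtTA*M2)Jae Col1a1tm3(tetO-Pou5f1,-Sox2,-Klf4,-Myc)Jae/J, in which a doxycycline-controlled promoter drives the 4 reprogramming factors, and an iPSC line grows from 1 colony. The study calls the libraries biological samples, but neither it nor the labels tie those of a group to separate animals or lines, so p-values measure the spread between these libraries, which may be technical.

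Introns are transcribed with the rest of a gene and cut out by splicing, usually within minutes, and the excised piece is normally degraded. Reads within an intron can come from unspliced RNA, from an intron kept in the RNA, from an unannotated exon or from a separate transcript that starts inside the gene. An assembler such as Cufflinks places such reads in a locus of their own where no spliced read ties them to the gene, and gives it no strand where no splice site fixes one. FPKM is the number of fragments per kilobase of locus, scaled to the depth of the library. The labels name both a depletion of ribosomal RNA, which keeps RNA without a poly(A) tail, and a stranded mRNA kit, which usually selects for the tail. The study's methods name the mRNA kit alone. Whether ribosomal RNA depletion took the place of selection for the tail, which bears on how much intronic RNA entered the libraries, could not be told from these sources. The 9 libraries are bulk samples, in which fewer cells of a type and less RNA per cell cannot be told apart.

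Sequence was read at the annotated start sites that the loci touch. Windows of 250 bases before to 50 bases after a RefSeq start (32851 windows, GRCm38.p6) met 25 of the loci in 27 windows. Of these windows, 9 were of the host itself and 18 of another gene. The 4 below belong to the loci that changed between SSC and SSCiPSC, and each is given 5′ to 3′ in the direction of the starting gene, with capitals for the bases inside the intronic locus.
Gm30363, chr14:21483571-21483870, minus strand, at a locus in Kat6b: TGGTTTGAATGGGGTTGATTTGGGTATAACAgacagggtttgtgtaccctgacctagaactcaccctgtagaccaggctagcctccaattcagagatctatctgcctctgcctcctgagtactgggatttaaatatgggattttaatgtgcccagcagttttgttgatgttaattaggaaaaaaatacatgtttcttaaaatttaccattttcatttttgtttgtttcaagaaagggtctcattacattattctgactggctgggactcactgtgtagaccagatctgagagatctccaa
Foxp1, chr6:99520944-99521243, minus strand, at a locus in Gm20696: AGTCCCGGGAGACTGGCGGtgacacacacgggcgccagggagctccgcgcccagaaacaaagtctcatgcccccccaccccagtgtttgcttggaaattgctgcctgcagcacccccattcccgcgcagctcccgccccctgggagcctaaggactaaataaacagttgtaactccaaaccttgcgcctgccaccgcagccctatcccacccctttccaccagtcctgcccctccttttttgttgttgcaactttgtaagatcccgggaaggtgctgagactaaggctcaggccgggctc
Pnrc1, chr4:33248738-33249037, minus strand, at a locus in Pnrc1 itself: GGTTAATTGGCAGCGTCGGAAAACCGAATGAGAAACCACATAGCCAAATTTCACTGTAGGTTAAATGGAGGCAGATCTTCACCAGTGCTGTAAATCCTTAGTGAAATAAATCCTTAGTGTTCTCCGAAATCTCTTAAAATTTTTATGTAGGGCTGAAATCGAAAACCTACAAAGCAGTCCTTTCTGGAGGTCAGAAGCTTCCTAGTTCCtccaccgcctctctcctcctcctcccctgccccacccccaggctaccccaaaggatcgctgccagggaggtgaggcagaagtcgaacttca
Gm51965, chr12:64918510-64918809, minus strand, at a locus in Gm527: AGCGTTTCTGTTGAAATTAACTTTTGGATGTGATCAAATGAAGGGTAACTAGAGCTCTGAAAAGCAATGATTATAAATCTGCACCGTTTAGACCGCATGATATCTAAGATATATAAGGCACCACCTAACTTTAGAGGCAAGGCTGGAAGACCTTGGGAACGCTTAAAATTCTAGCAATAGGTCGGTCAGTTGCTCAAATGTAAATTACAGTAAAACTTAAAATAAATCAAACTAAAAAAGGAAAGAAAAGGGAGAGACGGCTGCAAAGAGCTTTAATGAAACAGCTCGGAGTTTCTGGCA
In 3 of the 4 the capitals stand at the 5′ end, so the locus lay before the start: it ended 219 bases before the start of Gm30363, 231 before that of Foxp1 and 41 before that of Pnrc1. The locus in Gm527 covered the whole window of Gm51965. The motif TATAAA, read on both strands, was in 2 of the 27 windows against 13.6% of all windows, and CCAAT, also on both strands, in 10 of the 27 against 37.4%.

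These 4 loci moved in different directions. The locus in Kat6b, a histone acetyltransferase gene (chr14:21483840-21484104, 264 bp), was listed at 0 in all 3 SSC libraries, at 17.9, 15.8 and 10.5 FPKM in SSCiPSC replicates 1, 2 and 3, and at 9.46, 15.1 and 16.8 in fiPSC. It was tested only through its iPSC values and rose in SSCiPSC by 3.94 ± 0.28 (SE) on the log2(FPKM + 1) scale (limma, adjusted p = 0.000159). The FPKM worth 3 fragments over the SSC libraries, the limit of what a value of 0 can show there, was 3.56, so the SSCiPSC mean was at least 4.13-fold higher. Every fold given here and below as at least a value divides the mean of the higher group by such a limit. The counting error of that mean is left out. The locus beside the Foxp1 start, a start of a forkhead transcription factor gene, held 6.31, 3.38 and 1.61 FPKM in SSC, 0.423, 0 and 0.293 in SSCiPSC and 0.335, 0.0631 and 0.145 in fiPSC. Its SSC values were all above those of the iPSC, and it fell by 1.84 ± 0.41 (SE) in SSCiPSC (limma, adjusted p = 0.00961). The locus at the Gm51965 start held 2.0, 2.15 and 2.05 FPKM in SSC, with a range of 0.426 to 0.735 over the 6 iPSC libraries, and fell by 0.91 ± 0.19 in SSCiPSC (limma, adjusted p = 0.00805). In SSCiPSC against SSC it was tested only through its SSC values, as were the loci beside the Foxp1 start and in Pnrc1. A fall was thus the only direction these loci could show. The locus in Pnrc1, a gene for a nuclear receptor coactivator, fell by 1.05 ± 0.28 in SSCiPSC (limma, adjusted p = 0.0212), with 1.40, 3.21 and 1.79 FPKM in SSC against 0.780, 0.355 and 0.32 in SSCiPSC. In fiPSC it held 1.11, 0.417 and 0.803 FPKM, and that difference from SSC did not pass the test (limma, adjusted p = 0.0603).

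The loci were short and lay toward the starts of long genes. Their length ran from 105 to 12555 bp with a median of 680 bp, and 101 were under 200 bp. The median distance to the nearest exon of the host was 4360 bp, 24.0% lay within 1 kb of an exon and 37.3% over 10 kb from one. The first intron held 35.6% of them, the first 10% of the host's length 19.2% and the last 10% 6.80%. The median length of the host was 119 kb over the loci and 48 kb over the 922 hosts, each counted once. A single locus was found in 464 hosts, and the 5 hosts with the most loci held 16.3% of all.

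Depth set what these loci could show. FPKM values of low loci are whole multiples of the value of 1 fragment, from which the libraries were estimated to hold 1760000, 4600000 and 1380000 fragments in SSC replicates 1, 2 and 3, 15700000, 13600000 and 15000000 in SSCiPSC, and 13200000, 17500000 and 15400000 in fiPSC. Every SSC library was shallower than every iPSC library, so depth and the difference between SSC and iPSC cannot be told apart. For a locus of 680 bp, 1 fragment was worth 1.08, 0.413 and 1.38 FPKM in the SSC libraries but from 0.108 to 0.143 FPKM in the iPSC libraries. The loci listed at 0 were 45.5%, 29.5% and 55.8% in SSC, 22.7%, 28.2% and 26.4% in SSCiPSC, and 21.3%, 19.9% and 20.3% in fiPSC. Loci with a strand were at 0 in no more than 12.7% of cases in any library. A locus above 0 rested on a median of 2 to 3 fragments in SSC and 5 to 7 in iPSC. All 9 libraries had a value above 0 at 743 of the 3324 loci.

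**Figure D1:**
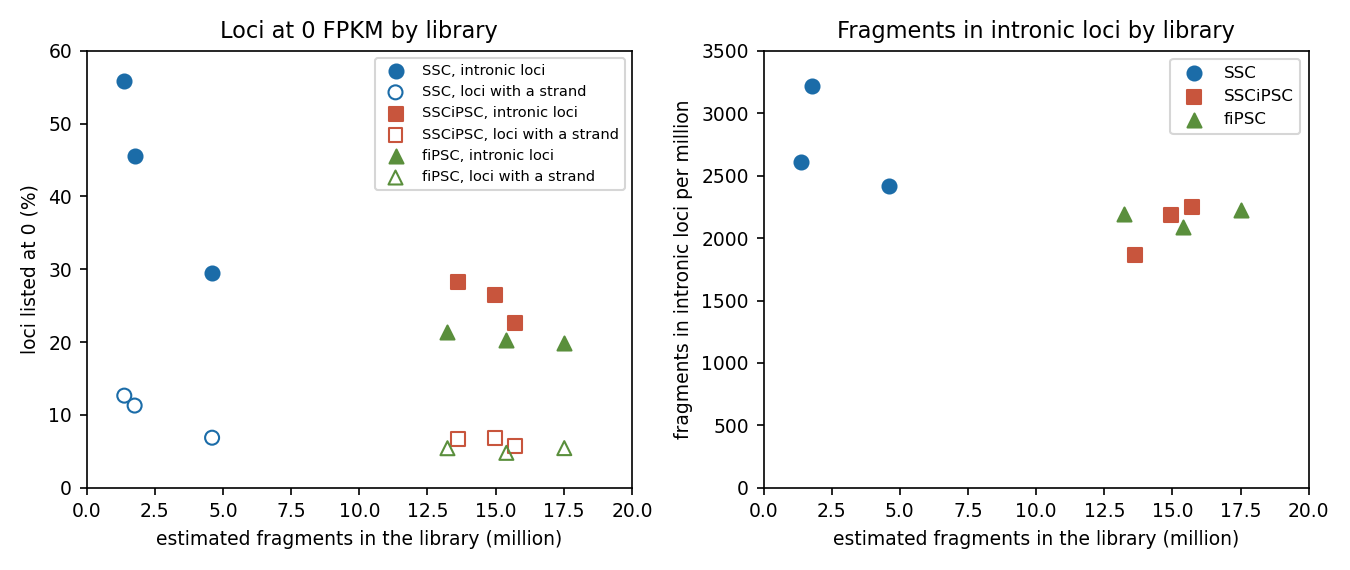
Left, the percent of intronic loci (filled) and of loci with a strand (open) listed at 0 FPKM in each of the 9 libraries, against the estimated depth of the library. Right, the estimated fragments in all intronic loci per 1000000 of the library. The 2 shallowest libraries, SSC replicates 3 and 1, have the most loci at 0 (55.8% and 45.5%), and the 3 SSC libraries lie above all iPSC libraries on the right.

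Counted in fragments, the intronic loci took a larger part of the SSC libraries than of the iPSC libraries, whereas their share of the summed FPKM depended on which loci were counted. Summed over all loci, they held 3220, 2415 and 2609 fragments of every 1000000 in SSC, 2247, 1862 and 2181 in SSCiPSC and 2189, 2228 and 2090 in fiPSC. The means were 2748 ± 420 (SD, n = 3), 2097 ± 206 and 2169 ± 70.7, and the lowest SSC value was above the highest iPSC value. SSCiPSC stood at 0.763 times SSC and fiPSC at 0.789 times SSC, each with p = 0.1 (exact permutation test, two-sided), the smallest p that 3 against 3 libraries allow. The 2 iPSC groups differed by less than the spread between libraries (p = 0.8, exact permutation test, two-sided). In contrast, the share of the summed FPKM was 0.925% ± 0.136 (SD, n = 3) in SSC, 0.875% ± 0.157 in SSCiPSC and 0.775% ± 0.0137 in fiPSC. That share did not separate SSC from SSCiPSC (p = 0.5, exact permutation test, two-sided), while every SSC library, at 0.804% or more, was above every fiPSC library, at 0.787% or less (p = 0.1, exact permutation test, two-sided). It gives a short locus as much weight as a long one, and with loci of at least 600 bp it was 0.265% ± 0.0385 in SSC against 0.122% ± 0.0135 in SSCiPSC and 0.129% ± 0.0191 in fiPSC (p = 0.1 for both, exact permutation test, two-sided). With loci barred only by exons of protein-coding genes the order turned, to 2.75% ± 0.411 in SSC against 4.24% ± 0.786 in SSCiPSC and 4.26% ± 0.505 in fiPSC (p = 0.1 for both against SSC, exact permutation test, two-sided).

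The comparison of SSCiPSC with SSC asks what reprogramming of SSC changed. Of the 3324 loci, 1310 reached 1 FPKM in at least 3 of the 6 libraries and were tested, and 534 passed, 213 higher and 321 lower in SSCiPSC (limma on log2(FPKM + 1), Benjamini-Hochberg over all 36544 loci tested, adjusted p under 0.05). That is 40.8% of the tested loci, against 50.3% of all loci tested, 62.0% of loci with a strand, 45.3% of unstranded loci that touch an exon and 44.9% of unstranded loci outside every gene. The median difference of the intronic loci was -0.06 on the log2 scale and that of all loci 0.11. Of the 1310 loci, 447 passed the filter only through SSCiPSC and 370 only through SSC, and 245 reached 1 FPKM in all 6 libraries. The other 2014 loci were not tested. With a mean of at least 5 FPKM the larger side turned, to 62 higher and 40 lower of 255 tested.

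For fiPSC against SSC, 588 of 1415 tested loci passed, 271 higher and 317 lower in fiPSC, which is 41.6% against 51.8% of all loci tested (limma, adjusted p under 0.05). The larger side depended on the processing, with 296 higher and 286 lower under median-ratio scaling, 455 and 371 without a filter on low values, and 356 and 338 when only exons of protein-coding genes barred a locus. The median difference was 0.07 for the intronic loci and 0.17 for all loci. Both comparisons use the same SSC libraries, so their values are given side by side and are not independent.

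The balance of higher and lower calls differed with length, at the intronic loci and over all loci tested. In SSCiPSC against SSC, loci under 200 bp were higher in 24 and lower in 5 of 87 tested, those from 200 to under 600 bp higher in 118 and lower in 100 of 654, and those of 600 bp and over higher in 71 and lower in 216 of 569. The median differences were 1.78, 0.19 and -0.44 on the log2 scale. Over all loci tested the numbers were 360 higher and 62 lower of 1062, 1478 and 722 of 5321, and 7744 and 8030 of 30161, with medians of 2.04, 0.52 and 0.01. Unstranded loci that touch an exon gave 113 and 36 of 417, 349 and 276 of 1601, and 686 and 1556 of 4645. The turn to lower calls in the longest class was thus shared with those loci, and unstranded loci outside every gene had 338 higher and 290 lower of 1333 there. In fiPSC against SSC the counts were 24 and 5 of 91, 140 and 105 of 695, and 107 and 207 of 629, against 366 and 67 of 1077, 1695 and 718 of 5656, and 8597 and 8237 of 31274 over all loci tested. Unstranded loci that touch an exon had 762 higher and 1543 lower of 4778 in the longest class, and those outside every gene 498 and 269 of 1577. Among loci with at least 10 estimated fragments in 3 of the 6 libraries, 109 of 401 were higher and 60 lower in SSCiPSC, and 150 of 479 higher and 65 lower in fiPSC. That minimum was met by the 3 iPSC libraries and not by the 3 SSC libraries at 351 of the 401 and 434 of the 479 loci, so it selected loci that are high in the deeper iPSC libraries and the balance among them cannot be read. The 3 libraries of both groups met it at 23 loci for SSCiPSC and 24 for fiPSC. Called loci lower in SSCiPSC lay in the first intron in 35.5% of cases and those higher in 27.7%, with median lengths of 752 and 423 bp.

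**Figure D2:**
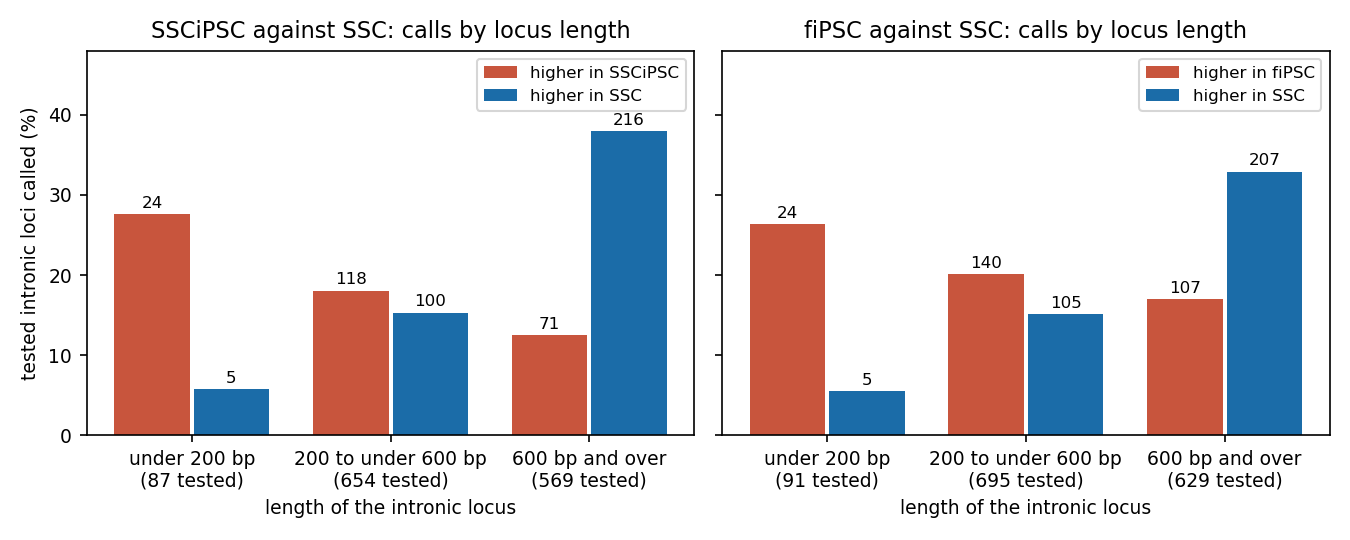
Percent of the tested intronic loci called higher in iPSC (red) and higher in SSC (blue) by length of the locus, for SSCiPSC against SSC (left) and fiPSC against SSC (right), with the number of loci above each bar. Higher calls outnumber lower calls under 200 bp (24 against 5) and lower calls outnumber higher calls from 600 bp (216 against 71 in SSCiPSC).

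A value of 0 in all SSC libraries had to be read against their depth. Of the 213 loci higher in SSCiPSC, 96 were at 0 in the 3 SSC libraries. At 71 of them the SSCiPSC mean was at or above the FPKM worth 3 fragments over the SSC libraries together, at 24 it was below, and at 1 the value of a fragment could not be read. At those 24 loci a level as high as in SSCiPSC could have left no fragment in SSC, so the difference was not detectable at this depth, whatever its p. For fiPSC the numbers were 113 at 0, 86 at or above the limit, 26 below it and 1 not read. In the other direction, 62 loci lower in SSCiPSC were listed there at 0, and all had SSC means above the limit of the SSCiPSC libraries. The filter nearly fixes that, since such a locus was tested only with 1 FPKM or more in all 3 SSC libraries, and the SSC values themselves often rest on few fragments. The limits cover the counting error of the group listed at 0 only, not that of the higher group and not the spread between libraries.

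**Figure D3:**
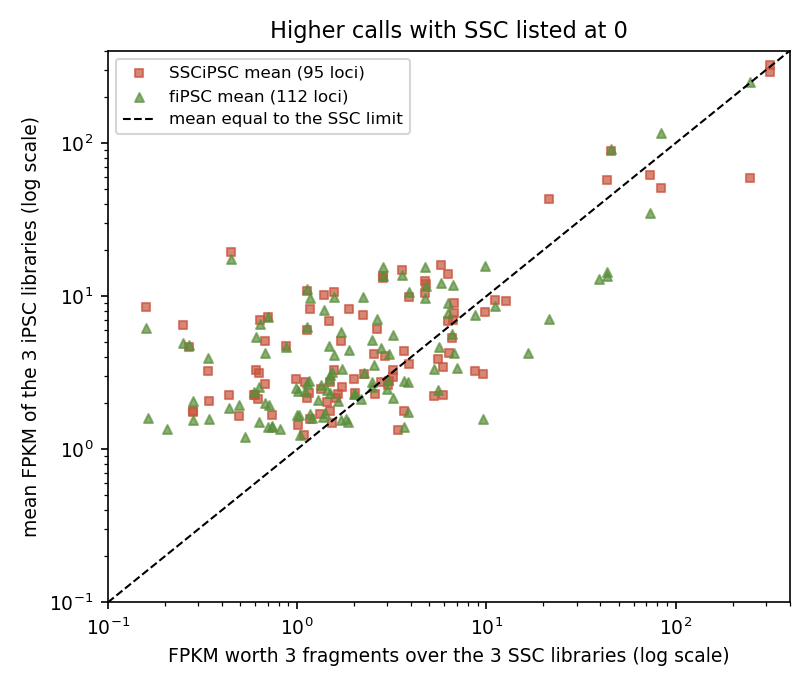
Each point is an intronic locus called higher in SSCiPSC (squares) or fiPSC (triangles) and listed at 0 in all 3 SSC libraries. The horizontal axis gives the FPKM worth 3 fragments over the SSC libraries and the vertical axis the mean FPKM of the iPSC libraries, both on a log scale. Points under the dashed line, 24 for SSCiPSC and 26 for fiPSC, have an iPSC mean below that limit.

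The largest positive differences in SSCiPSC, among loci with no overlap and a mean of at least 10 FPKM, were at 5 loci of 105 to 141 bp, a length at which few fragments fit and each is worth a high FPKM. All 5 were at 0 in the 3 SSC libraries, so they were tested only through their iPSC values and could show only a rise. The locus in Apobec3 (chr15:79908526-79908631, 105 bp), in a cytidine deaminase gene that restricts retroviruses, held 1432, 1278 and 4135 FPKM in SSCiPSC and 534.5, 1073 and 1212 in fiPSC. The fitted difference was 10.94 ± 0.44 (SE) on the log2 scale in SSCiPSC (limma, adjusted p = 3.92e-05). The worth of a fragment could not be read at this length, so no limit can be given for SSC. A locus of nearly the same length in Akr1d1 was listed at 2730 FPKM in SSC replicate 2 and at 0 in the other SSC libraries, and that single value is above the SSCiPSC mean of 2281 at Apobec3, so whether the difference was detectable at this depth cannot be told. The locus in Trpc5, a cation channel gene (chrX:144556356-144556472, 116 bp), held 9, 7 and 5 estimated fragments in SSCiPSC and 11, 8 and 11 in fiPSC. Its difference in SSCiPSC was 8.25 ± 0.30 (SE) on the log2 scale (limma, adjusted p = 2.78e-05), yet its SSCiPSC mean of 321 ± 124 FPKM (SD, n = 3) hardly passed the SSC limit of 316, since 1 fragment was worth 178 FPKM even in SSC replicate 2. The locus in Rgs17, a regulator of G protein signalling (chr10:5848464-5848580, 116 bp), held 3, 9 and 8 fragments in SSCiPSC and 11, 6 and 9 in fiPSC. Its SSCiPSC mean of 292 FPKM lay below the same SSC limit. The fiPSC means were above it, at 531 FPKM in Trpc5 and 465 in Rgs17, 1.68-fold and 1.47-fold the limit. These margins leave out the counting error of the few fiPSC fragments.

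The other 2 lay above their limits. The locus in Plcxd3 (chr15:4559948-4560088, 140 bp), of the phospholipase C family, held 117, 106 and 42.7 FPKM in SSCiPSC, from 16, 15 and 7 fragments, and was at least 1.94-fold higher than in SSC. The locus in the first intron of Tmem39a (chr16:38560570-38560711, 141 bp), a gene of a membrane protein, held 48.5, 60.7 and 63.9 FPKM in SSCiPSC and 7.98, 16.8 and 15.9 in fiPSC. From 7, 9 and 11 fragments, its SSCiPSC mean was 1.33-fold the SSC limit of 43.4 FPKM, a margin that leaves out the counting error of those fragments. Its fiPSC mean of 13.6 lay below that limit. The largest positive differences in fiPSC included those in Apobec3, Trpc5 and Rgs17 and a locus in Dnajb6. Dnajb6 encodes a co-chaperone, and its locus (chr5:29759044-29759162, 118 bp) held 12, 4 and 2 fragments in fiPSC, with a mean of 248 FPKM against an SSC limit of 246.

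The largest falls were at longer loci, from 214 to 368 bp in SSCiPSC, and rested on few SSC fragments. In Me1, the gene of the cytosolic malic enzyme, a locus of 339 bp (chr9:86657898-86658237) held 9.31, 13.1 and 11.9 FPKM in SSC, which are 3, 11 and 3 fragments. It was at 0 in SSCiPSC, at least 32.5-fold lower, and at 0.406, 0 and 0.712 FPKM in fiPSC, and it fell by 3.62 ± 0.24 (SE) in SSCiPSC (limma, adjusted p = 0.000142). Like the loci in Maml2, 2010300C02Rik and Csf1 below, it was tested only through its SSC values. A fall was thus the only direction these loci could show. A locus in the first intron of Maml2, a coactivator of Notch signalling (chr9:13303678-13304046, 368 bp), held 6 fragments in each SSC library, at 16.1, 6.15 and 20.6 FPKM, then 0.892, 0 and 0 FPKM in SSCiPSC and 0 in all fiPSC libraries. It fell by 3.48 ± 0.50 in SSCiPSC (limma, adjusted p = 0.0017) and was at least 47.3-fold lower in fiPSC.

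The gene 2010300C02Rik held a locus 406 bp from an exon (chr1:37718902-37719163, 261 bp) with 16.1, 20.5 and 6.88 FPKM in SSC and 0 in all 6 iPSC libraries, at least 24.1-fold lower in both. Its host locus fell with it, from 8.75, 11.6 and 7.40 FPKM in SSC to at most 0.135 in an iPSC library. In Zfand3, a zinc finger gene, a locus of 251 bp (chr17:30048743-30048994) went from 29.5, 18.1 and 22.7 FPKM in SSC to 0.650, 0 and 1.86 in SSCiPSC and 2.29, 1.70 and 2.04 in fiPSC. The Auts2 locus at chr5:131598300-131598514 (214 bp) held 1, 2 and 2 fragments in SSC and none in any iPSC library. It was tested only through its SSC values and passed (limma, adjusted p = 0.000864), and with so few SSC fragments its SSC level is itself uncertain.

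In fiPSC, the 5 largest falls were those in 2010300C02Rik, Maml2 and Auts2 and loci in Csf1 and Pja2. Csf1 encodes the colony-stimulating factor of macrophages. Its locus in the first intron (chr3:107759062-107759423, 361 bp) held 19.4, 10.6 and 7.10 FPKM in SSC, 0, 0.344 and 0.307 in SSCiPSC and 0 in all fiPSC libraries, at least 39.7-fold lower. The Csf1 host locus fell alongside, from 29.9, 25.9 and 32.6 FPKM in SSC to between 0.190 and 1.17 in the iPSC libraries. Pja2 encodes an E3 ubiquitin ligase, and its locus (chr17:64323454-64323633, 179 bp) showed how little can lie behind a call: 17.4, 6.67 and 44.1 FPKM in SSC were 1, 1 and 2 fragments. It fell in fiPSC by 3.75 ± 0.72 (SE) (limma, adjusted p = 0.00582), while SSCiPSC replicate 3 alone held 10 fragments there.

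The highest levels of any intronic locus were at short loci as well. Akr1d1, a steroid reductase gene, held the locus with the highest mean in SSC (chr6:37542225-37542332, 107 bp). It was listed at 0, 2730 and 0 FPKM in SSC, 1518, 1588 and 1001 in SSCiPSC and 853, 0 and 1280 in fiPSC. The 3 groups overlapped and no difference passed the test. In Vsig4, a complement receptor gene of macrophages, a locus of 189 bp (chrX:96275997-96276186) held 126, 80.6 and 196 FPKM in SSC, which are 9, 15 and 11 fragments, against 33.8, 22.5 and 22.2 in SSCiPSC and 39.3, 26.1 and 46.3 in fiPSC. It fell by 2.25 ± 0.34 (SE) in SSCiPSC (limma, adjusted p = 0.00211) and by 1.77 ± 0.36 in fiPSC (limma, adjusted p = 0.00738). In Vmn1r4, a vomeronasal receptor gene, a locus of 143 bp (chr6:56946819-56946962) held 174, 88.8 and 285 FPKM in SSC against 50.2, 85.9 and 68.7 in SSCiPSC. The groups nearly met there, and it fell by 1.29 ± 0.43 (limma, adjusted p = 0.0451). Its fiPSC values of 50.6, 35.6 and 137 FPKM overlapped those of SSC, and that difference did not pass the test (limma, adjusted p = 0.107).

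Between the 2 kinds of iPSC a single intronic locus passed the test. None passed when SSCiPSC replicate 1, fiPSC replicate 1 or fiPSC replicate 3 was left out. Of 1193 tested loci 1 passed, 0.0838% of those tested against 0.0678% of all 33948 loci (limma, adjusted p under 0.05), and 119, or 9.97%, had an unadjusted p under 0.05, against 3988 of all loci, or 11.7%. Sums over the loci of some hosts, given with those hosts, did not overlap between the 2 groups. With 3 against 3 libraries that gives p = 0.1 at best (exact permutation test, two-sided). The share of all 922 hosts with such sums was not counted, so nothing is read from them about the 2 kinds of iPSC. The locus that passed lies in Cldn34c1, a claudin family gene (chrX:123153966-123154124, 158 bp). It held 41.2, 51.7 and 35.6 FPKM in SSCiPSC against 7.93, 5.67 and 7.65 in fiPSC, from 12, 15 and 12 against 2, 2 and 2 fragments. It was listed at 0 in SSC, where the limit of 3 fragments is 21.5 FPKM. SSCiPSC was therefore at least 1.99-fold above SSC, and the fiPSC level was too low to be compared with SSC.

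For loci whose host had a stranded locus of its own in the table, the intronic locus could be set beside the gene. There were 1036 such loci in 384 hosts, and 516 of them in 215 hosts were tested with their host in SSCiPSC against SSC. The difference at the locus and at the host had the same sign in 75.4%, with Pearson's r = 0.651 and Spearman's rho = 0.690 across these loci, which share libraries and, often, a host. The median difference was -0.54 at the loci and -0.21 at their hosts. Of 228 loci called, 177 had a host called in the same direction, 12 a host called in the opposite direction and 39 a host that was not called. In 183 cases only the host was called. In fiPSC against SSC, 539 loci gave r = 0.668, rho = 0.712 and the same sign in 76.6%, and 192 of 227 called loci had a host called in the same direction. Between fiPSC and SSCiPSC, r was 0.282 and rho 0.295 over 392 loci.

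**Figure D4:**
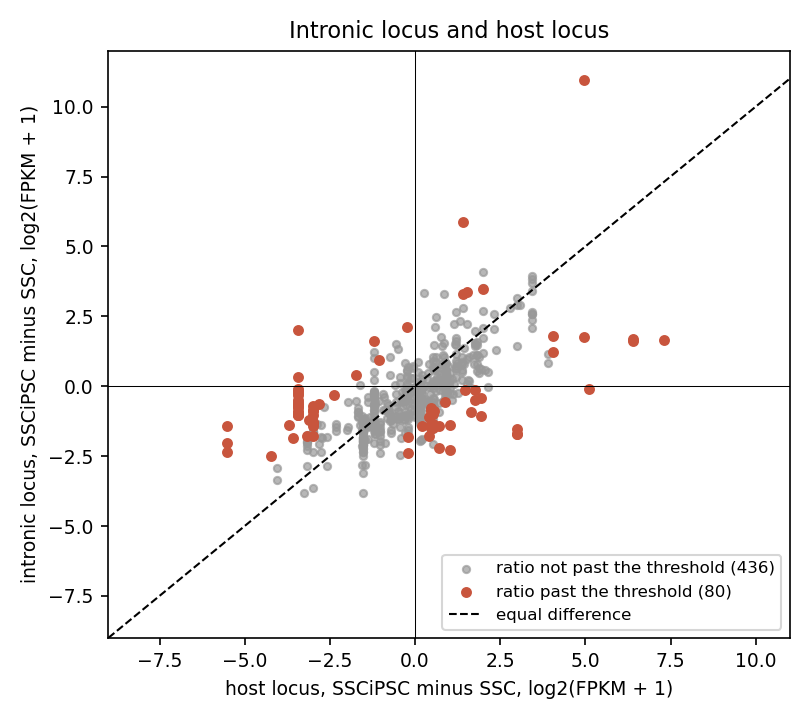
The difference between SSCiPSC and SSC at the host locus (horizontal) and at the intronic locus inside it (vertical), both on the log2(FPKM + 1) scale, for 516 loci. Red points are the 80 loci whose ratio to the host passed the test, and the dashed line marks equal differences. Most points lie in the lower left and upper right quadrants, where locus and host have the same sign (75.4%).

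The ratio of a locus to its host passed the test at 80 of the 516 loci in SSCiPSC against SSC, 46 higher and 34 lower, against 10.2% of all 5311 loci so tested (limma on the difference of log2 values). The count depended on the settings and on single libraries. It was 33 with a pseudocount of 0.1 and 137 with all 9 libraries in the fit. With at least 10 estimated fragments, 3 ratios were higher and 11 lower. Without SSCiPSC replicate 1, 2 or 3 the number fell from 80 to 26, 32 or 30, while without SSC replicate 3 it was 121. Of the 46 higher ratios 41 belonged to a host that was lower in SSCiPSC, and of the 34 lower ratios 32 to a host that was higher. The host's own difference enters the ratio with the opposite sign by construction. Over all 5311 pairs, 452 of 542 called ratios (83.4%) likewise went opposite to their host, against 73 of the 80 (91.2%) here. In fiPSC against SSC, 72 ratios passed, 40 higher and 32 lower, against 8.88% of 5476, and 34 and 28 of them went opposite to the host. Without fiPSC replicate 1, 2 or 3 the number was 22, 23 or 21, and without SSC replicate 2 or 3 it was 127 or 109. A pseudocount of 0.1 gave 39 and all 9 libraries in the fit 119. With at least 10 estimated fragments, 8 were higher and 12 lower. Between fiPSC and SSCiPSC no ratio passed (limma), 41 had an unadjusted p under 0.05, and 0.0455% of all 4391 ratios passed. A locus at or near 0 in both groups gives a ratio that mirrors its host. The locus was at 0 in all SSC libraries at 7 of the 46 higher and 5 of the 34 lower ratios.

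The largest negative differences of the ratio in SSCiPSC were at Esrrb, Zscan10 and Tet1, the last with 2 loci, and at all 3 the SSC value of the ratio could not be measured. Esrrb encodes an orphan nuclear receptor of the pluripotency network, and its host locus went from 0.486, 0.689 and 0.716 FPKM in SSC to 221, 298 and 260 in SSCiPSC and 170, 179 and 195 in fiPSC. The locus in its second intron (chr12:86424072-86424852, 780 bp) was at 0 in SSC and at 2.13, 2.08 and 2.2 FPKM in SSCiPSC, from 21, 18 and 21 fragments. It was at least 3.45-fold higher in SSCiPSC than in SSC and rose by 1.65 ± 0.16 (SE). It was tested only through its SSCiPSC values, so a rise was the only direction it could show. The SSC limit of 0.619 FPKM is about the level of the host itself there, so a locus as high as its host could have left no fragment in SSC, and a change of the ratio was not detectable at this depth. In fiPSC it held 0.602, 0.725 and 0.312 FPKM, with no overlap with SSCiPSC, and this locus was not tested against SSC there because it did not reach 1 FPKM.

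Tet1 encodes an enzyme that oxidises methylated cytosine. Its host locus went from 1.48, 1.55 and 1.36 FPKM in SSC to 180, 205 and 243 in SSCiPSC and 194, 208 and 191 in fiPSC. Of its loci in the same intron, that of 500 bp (chr10:62897999-62898499) was at 0 in SSC, at 1.65, 3.33 and 1.5 FPKM in SSCiPSC and at 3.26, 1.31 and 3.59 in fiPSC, at least 1.93-fold and 2.43-fold above SSC. That of 345 bp (chr10:62893063-62893408) was at 0 in SSC and at 2.67, 2.98 and 1.33 FPKM in SSCiPSC. The SSC limits of the 2 loci, 1.12 and 2.03 FPKM, lie about the level of Tet1 itself in SSC, so a change of their ratios to Tet1 was not detectable at this depth. Zscan10, a zinc finger gene of pluripotent cells, had the other. The host locus was at 0, 0.661 and 0 FPKM in SSC and at 34.2, 57.2 and 32.7 in SSCiPSC. The intronic locus (chr17:23608712-23609025, 313 bp) was listed at 0, 1.38 and 4.64 FPKM in SSC replicates and at 1.6, 3.11 and 0 in those of SSCiPSC, which overlap. With 0, 1 and 1 fragments behind the SSC values and a host near 0 there, the ratio could not be compared. In fiPSC a locus in Prkcb, a protein kinase C gene (chr7:122631878-122632482, 604 bp), went the other way from its host. It held 5.06, 4.84 and 6.48 FPKM in SSC and 0.502, 1.26 and 1.02 in fiPSC, whereas the host locus held 3.48, 2.22 and 0 FPKM in SSC and 14.0, 12.4 and 13.3 in fiPSC. Its ratio fell by 4.30 ± 0.66 (limma, adjusted p = 0.0134).

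The largest positive differences of the ratio were in Apobec3, Zbtb20, Tmem39a and Cdh2. At Apobec3 the host went from 1.87, 4.05 and 3.35 FPKM in SSC to 127, 129 and 114 in SSCiPSC, and since no limit can be given for its locus of 105 bp in SSC, the same holds for the ratio. At Tmem39a the host rose from 26.0, 29.1 and 35.8 FPKM in SSC to 90.4, 78.4 and 74.5 in SSCiPSC, but the SSC limit of its locus, 43.4 FPKM, is above the host's own SSC level, so a change of the ratio was not detectable at this depth. Cdh2 encodes N-cadherin, and its host locus went from 64.0, 54.1 and 53.4 FPKM in SSC to 0.298, 0.429 and 0.116 in SSCiPSC. The locus in the last intron of Cdh2 (chr18:16593365-16594002, 637 bp) fell too, from 2.36, 1.35 and 1.51 FPKM in SSC, which are 2, 3 and 1 fragments, to 0. Its SSC mean was 12.6-fold the SSCiPSC limit, a value that leaves out the counting error of so few SSC fragments. The ratio of the locus to Cdh2 rose by 4.07 ± 0.27 (limma, adjusted p = 0.00109) although both fell. A locus at this level cannot fall further on the log2(FPKM + 1) scale. Zbtb20, a transcriptional repressor gene, had a host locus of 23.5, 23.1 and 25 FPKM in SSC against 1.89, 0.684 and 1.57 in SSCiPSC. One of its loci (chr16:42918801-42919809, 1008 bp) held 1.33, 1.02 and 0.850 FPKM in SSC, 1.71, 0.596 and 0.617 in SSCiPSC and 1.06, 1.13 and 0.838 in fiPSC, with overlap of all groups, and its ratio rose by 3.47 ± 0.27 in fiPSC (limma, adjusted p = 0.0015). The other (chr16:42928201-42928414, 213 bp) was at 0 in SSC and at 1.02, 2.18 and 9.47 FPKM in SSCiPSC, below the SSC limit of 6.36 FPKM on average.

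The 5 hosts with the most loci were Grip1 with 172, Immp2l with 139, Rad51b with 85, Pde4d with 76 and Auts2 with 69, all over 500 kb long. Their loci were summed as fragments per 1000000 of the library, called normalised fragments here, since most were too low to be tested alone. Grip1 encodes a scaffold of glutamate receptors (chr10:119453830-120087261). Its loci held 87.5, 50.2 and 60.1 normalised fragments in SSC, 9.86, 5.57 and 10.3 in SSCiPSC and 26.0, 22.2 and 27.1 in fiPSC. The 3 groups did not overlap, with SSCiPSC at 0.130 times and fiPSC at 0.381 times SSC, and fiPSC at 2.93 times SSCiPSC (each p = 0.1, exact permutation test, two-sided, the smallest possible). Auts2, a gene linked to neural development (chr5:131437333-132543344), held 62.6, 48.1 and 58.0 normalised fragments in SSC, 7.01, 5.22 and 6.35 in SSCiPSC and 8.54, 8.28 and 11.3 in fiPSC. Of its 17 loci tested in SSCiPSC 12 fell and none rose, and its host locus went from 19.5, 22.7 and 15 FPKM in SSC to at most 1.74 in SSCiPSC. In that comparison 50.3% of all loci tested and 40.8% of the intronic loci were called. Only 1 Auts2 locus was high enough to be tested in fiPSC against SSCiPSC. The Auts2 loci tested against SSC thus passed the filter mostly through their SSC values. A fall was nearly the only direction they could show, and nothing is read from the count of falls.

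Immp2l and Rad51b went the other way. Immp2l encodes a subunit of a mitochondrial inner membrane peptidase (chr12:41024090-41955588). Its loci held 77.2, 59.5 and 42.0 normalised fragments in SSC, 202, 79.9 and 121 in SSCiPSC and 173, 184 and 138 in fiPSC. All iPSC libraries were above all SSC libraries, at 2.26 and 2.77 times SSC (each p = 0.1, exact permutation test, two-sided). Of its tested loci, 8 of 39 rose in SSCiPSC and 30 of 66 in fiPSC, and none fell in either. Over all intronic loci tested, 40.8% were called in SSCiPSC and 41.6% in fiPSC, and over all loci 50.3% and 51.8%. Rad51b encodes a protein of homologous recombination (chr12:79297282-79814690). Its loci held 37.5, 38.9 and 31.1 normalised fragments in SSC, 118, 53.5 and 84.2 in SSCiPSC and 99.6, 113 and 83.6 in fiPSC, with 5 of 27 tested loci higher in SSCiPSC and 14 of 37 in fiPSC. Beside the shares over all loci given above, nothing is read from these counts in Immp2l and Rad51b. Pde4d, a cyclic AMP phosphodiesterase gene (chr13:108449948-109953461), held 21.6, 11.5 and 26.1 in SSC, 30.5, 19.9 and 19.7 in SSCiPSC and 20.9, 15.1 and 20.2 in fiPSC. Its groups overlapped (p = 0.6 for SSCiPSC and 0.8 for fiPSC against SSC, exact permutation test, two-sided).

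The stretch of the gene that the loci covered differed between hosts. Those of Grip1 ran from 0.0047 to 0.553 of the gene's length from its start, those of Immp2l from 0.0967 to 0.505, those of Rad51b from 0.0918 to 0.604, those of Pde4d from 0.589 to 0.786 and those of Auts2 from 0.702 to 0.959. The largest locus held from 2.64% of the summed fragments in Grip1 to 9.37% in Auts2, so the sums did not rest on 1 locus. Some other hosts were chosen after their values were seen. In Zfand3, with 43 loci, 27 of 30 tested loci fell in each kind of iPSC, and the sum went from 143, 84.4 and 103 normalised fragments in SSC to 11.5, 9.90 and 11.6 in SSCiPSC and 15.3, 15.2 and 15 in fiPSC. Of all loci tested 50.3% were called in SSCiPSC and 51.8% in fiPSC, and of the intronic loci 40.8% and 41.6%. Only 6 Zfand3 loci were high enough to be tested in fiPSC against SSCiPSC. Most of the 30 thus passed the filter mainly through their SSC values and could hardly show a rise, so nothing is read from the 27. The Zfand3 host locus went from 69.1, 122 and 127 FPKM in SSC to 23.8, 48.2 and 37.3 in SSCiPSC. Tshz2, a zinc finger homeobox gene with 59 loci, held 43.2, 21.5 and 34.1 normalised fragments in SSC and at most 0.455 in an iPSC library. Rybp, a subunit gene of Polycomb complexes with 30 loci, held 52.3, 35.7 and 33.4 in SSC and 63.0, 45.7 and 73.6 in SSCiPSC, with overlap (p = 0.2, exact permutation test, two-sided). Its fiPSC libraries, at 60.8, 67.8 and 54.0, were all above the SSC libraries, at 1.5 times SSC (p = 0.1, exact permutation test, two-sided).

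**Figure D5:**
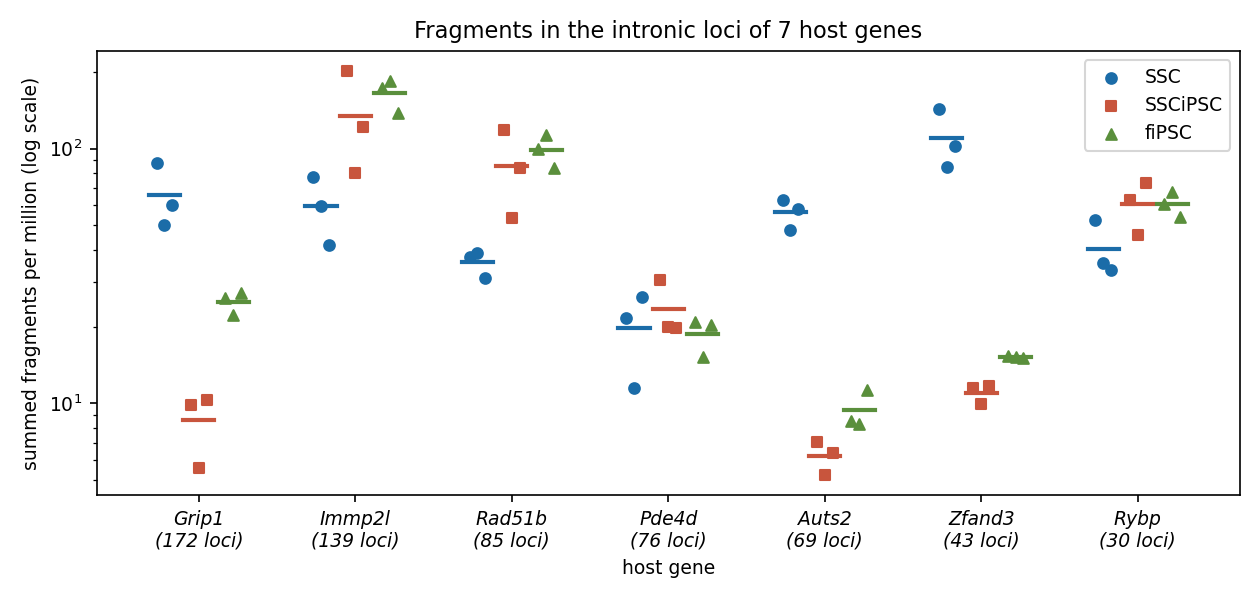
Summed fragments per 1000000 of the library (log scale) in the intronic loci of 7 host genes, with 1 point per library and a bar at the mean of each group of 3. The SSC libraries lie above all iPSC libraries in Grip1, Auts2 and Zfand3 and below them in Immp2l and Rad51b, and the groups overlap in Pde4d. Zfand3 and Rybp were chosen after their values were seen.

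The loci were also counted by lists of host genes. Very long genes, a list of neuronal and other genes with large introns, held 361 loci in 14 hosts. In SSCiPSC 25 rose and 24 fell of 107 tested (median 0.47 on the log2 scale), and in fiPSC 60 rose and 24 fell of 151 (median 0.75). These are 45.8% and 55.6% of the loci tested, beside 40.8% and 41.6% of all intronic loci and 50.3% and 51.8% of all loci. Few hosts carried much of this: Auts2 held 12 of the falls in each comparison, Rad51b 5 and 14 of the rises, and Cntnap2 further rises in each. Cntnap2, a neurexin family adhesion gene of neurons, is given as an example. Its locus of 1436 bp (chr6:47187659-47189095) held 0, 0.169 and 0.566 FPKM in SSC, which are 0, 1 and 1 fragments, against 16.0, 29.3 and 17.0 in SSCiPSC and 22, 13.4 and 23.2 in fiPSC, from 302 to 515 fragments a library. It rose by 4.10 ± 0.33 (SE) in SSCiPSC (limma, adjusted p = 0.00023) and by 4.03 ± 0.31 in fiPSC (limma, adjusted p = 0.00019). It was tested only through its iPSC values, so a rise was the only direction it could show. Its neighbour of 765 bp (chr6:47182152-47182917) was at 0 in SSC and at 6.13, 9.73 and 5.15 FPKM in SSCiPSC, at least 11.0-fold higher, and at least 10.3-fold higher in fiPSC. Another locus in the same intron (chr6:47181619-47181920, 301 bp), also at 0 in SSC, was at least 2.32-fold and 2.69-fold higher. Both of these loci could likewise show only a rise.

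DNA methylation and Tet genes held 11 loci in 4 hosts, and all 3 tested in SSCiPSC passed the test, 2 at Tet1 and 1 at Trim28. All 3 were at 0 in SSC and were tested only through their SSCiPSC values, so a rise was the one direction they could show, and nothing is read from the count. Trim28 encodes a corepressor that silences retroelements, and its locus (chr7:13013302-13013711, 409 bp) was at 0 in SSC and at 1.5, 1.68 and 1.26 FPKM in SSCiPSC, which on average is below the SSC limit of 1.52, so the difference at Trim28 was not detectable at this depth. In the list of chromatin remodelling, 11 loci in 5 hosts, none rose and 3 fell of 10 tested in SSCiPSC, with 2 in Hdac9, a histone deacetylase gene, and 1 in Setd2, a histone methyltransferase gene. That is 30% of those tested, beside the 40.8% of the intronic loci and the 50.3% of all loci. The Hdac9 locus of 1044 bp (chr12:34750813-34751857) held 3.83, 2.44 and 2.45 FPKM in SSC and 0 in SSCiPSC, at least 38.5-fold lower. None of the 7 loci in hosts that are splicing factors passed in either comparison with SSC (limma), and 0 had an unadjusted p under 0.05. Among imprinted genes and their hosts 1 locus was tested, in Trappc9, a gene of membrane traffic. It lies at chr15:72688105-72689222 and fell from 2.36, 2.48 and 1.51 FPKM in SSC to 0.725, 0.302 and 0.342 in SSCiPSC (1.09 ± 0.24, limma, adjusted p = 0.00893), whereas the Trappc9 host locus held 4.55, 6.86 and 6.42 FPKM in SSC against 5.78, 6.86 and 4.95 in SSCiPSC. The intronic locus was tested only through its SSC values, so a fall was the only direction it could show. The ratio of the locus to Trappc9 did not pass the test, at -1.08 ± 0.33 (SE) in SSCiPSC and -1.16 ± 0.34 in fiPSC (limma, adjusted p = 0.0917 and 0.0853). Pluripotency genes held the Esrrb locus alone.

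The SSC libraries held markers of other testis cells. In loci with a strand, Nanog was at 0 in all SSC libraries and between 270 and 483 FPKM in the iPSC, and Gfra1, the marker used for enrichment, was at 37.7, 34.1 and 23.9 FPKM in SSC and at most 0.171 in the iPSC. Germ line genes summed to 1064, 1291 and 884 FPKM in SSC, led by Dazl, and to between 402 and 710 in the iPSC. Sertoli cell genes summed to 1601, 1723 and 1432 FPKM in SSC, led by Clu, against at most 394 in the iPSC. Leydig cell genes, led by Fdx1, summed to 288, 244 and 444 against at most 11.9, and peritubular myoid genes, led by Acta2, to 114.9, 97.5 and 84.9 against at most 14.1. Mast cell genes, led by Tpsab1, differed most among the SSC libraries, at 107, 425 and 1179 FPKM, and 3 of the 5 measured were at 0 in every iPSC library. Macrophage genes, led by Cd68, summed to 58.5, 23.2 and 191 in SSC and at most 15.9 in the iPSC. Endothelial genes, led by Pecam1, summed to 126, 62.3 and 106 in SSC against 83.8 to 128 in the iPSC, where Pecam1 made up nearly all of the sum. Without Pecam1 they summed to 71.0, 35.7 and 61.6 in SSC and at most 4.36 in the iPSC, and Cdh5, the cadherin of endothelial cells, held 22.2, 12.6 and 27.2 FPKM in SSC and at most 0.0458 in the iPSC. Fibroblast genes, led by Vim, summed to 452, 413 and 849 against 278 to 463. No gene of the germ line list or of these 7 lists of other cells held an intronic locus. The part of these cells in the differences between SSC and iPSC at the intronic loci was not tested.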

How the data were processed

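RNA was sequenced from 3 SSC, 3 SSCiPSC and 3 fiPSC libraries, paired-end. The authors deposited 1 table of FPKM values per locus and library. The submitters' processing notes name Trimmomatic 0.32, TopHat2 2.0.9, Bowtie2 2.1.0, Cufflinks 2.2.1 and Cuffdiff, and the build mm9, although the intervals fit the GRCm38 annotation: of stranded rows matched to a gene end to end, 97.7% had the gene's strand. The table has no strand column. Strand was read from the 3 position-sorted blocks of each chromosome. Coordinates are those of the table.

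Of 54914 rows, 1 with a blank value was left out. A host locus is the stranded row that matches the host. Loci that reached 1 FPKM in 3 or more libraries of a comparison were tested with limma 3.58.1 in R 4.3.3 on log2(FPKM + 1), with Benjamini-Hochberg adjustment over all loci tested and a threshold of 0.05. A fold change on this scale understates the change of low loci. Fragment numbers were recovered from the steps of low FPKM values, and the limit at 0 is 3 fragments over a group. On simulated data, limma recovered 81% of 200 changed loci for SSCiPSC against SSC, 79% for fiPSC against SSC and 93.5% for fiPSC against SSCiPSC at a log2 change of 3, and 7.43%, 3.66% and 7.88% of its calls were false. The changed loci were drawn only from loci of higher mean level, and the noise was normal, without the steps of whole fragments. These rates thus do not cover loci that rest on few fragments, as many intronic loci do. Named loci were, per comparison, the 5 largest rises and falls with no overlap and a mean of at least 10 FPKM, the 4 largest against the host, the 3 highest per group, the 5 hosts with the most loci and examples per gene list. One locus that this rule names is not reported here. Sequences come from RefSeq start windows of GRCm38.p6. The loci and lists were chosen with earlier results of these data known.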

Additional observations from a re-analysis of the deposited data

Results flagged for a closer look

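The locus in Cldn34c1 (chrX:123153966-123154124) was the intronic locus that differed between the 2 kinds of iPSC made from different cells, by -2.43 on the log2(FPKM + 1) scale for fiPSC minus SSCiPSC (limma, adjusted p = 0.00994). It rests on 12, 15 and 12 fragments in SSCiPSC replicates 1, 2 and 3 and on 2 in each fiPSC library. The call was lost without SSCiPSC replicate 1, without fiPSC replicate 1 and without fiPSC replicate 3, where no locus passed.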

How the results depend on the processing

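Stricter settings left fewer loci to test, with a similar or higher share called. In SSCiPSC against SSC the 534 calls of 1310 tested (40.8%) became 102 of 255 (40%) with a mean of at least 5 FPKM, 287 of 569 (50.4%) at loci of at least 600 bp and 169 of 401 (42.1%) with at least 10 estimated fragments. In fiPSC against SSC the 588 of 1415 (41.6%) became 102 of 251 (40.6%), 314 of 629 (49.9%) and 215 of 479 (44.9%). Leaving out 1 library at a time gave 426 to 736 and 458 to 812. The single call between fiPSC and SSCiPSC became 2 with quantile normalization, 0 at loci of at least 300 or 600 bp and 0 with at least 10 fragments, and 0 to 2 with 1 library left out. Of the ratios to the host, the 80 in SSCiPSC against SSC (15.5% of 516) became 33 with a pseudocount of 0.1, 5 of 83 with a mean of at least 5 FPKM, 137 with all 9 libraries in the fit, 49 of 232 at 600 bp and over and 14 of 146 (9.59%) with at least 10 fragments, and 26 to 121 with 1 library left out. The 72 in fiPSC against SSC (13.4% of 539) became 39, 7 of 78, 119, 43 of 242 and 20 of 168, and 21 to 127. The 0 between fiPSC and SSCiPSC became 1 with a pseudocount of 0.1, and 0 to 1 with 1 library left out. Replicate numbers did not pair the libraries (correlations from -0.236 to 0.0239 between same-numbered libraries). With the replicate block, 488 and 531 loci and 25 and 28 ratios passed against SSC, and 0 loci between fiPSC and SSCiPSC. Lower calls outnumbered higher ones in both, and this turned with a mean of at least 5 FPKM (62 higher and 40 lower in SSCiPSC, 59 and 43 in fiPSC), with at least 10 fragments (109 and 60, 150 and 65, a minimum mostly met by the deeper iPSC libraries alone) and, in fiPSC, without a filter (455 and 371), with exons of protein-coding genes alone (356 and 338) and with median-ratio scaling (296 and 286, against 237 and 277 in SSCiPSC). At loci of at least 300 bp the numbers were 152 and 305, and 208 and 302. Without calls below the limit at 0 or with no limit read, 188 and 244 higher loci were left. The 300 bp and limit alternatives were chosen after seeing the data. The difference in the share of summed FPKM between SSCiPSC and SSC (-0.0498 points) was -0.193 without the 10 most abundant loci. With FPKM times length it was -0.00601, where SSC held 0.0173% and SSCiPSC 0.0113%. It became 1.49 when exons of protein-coding genes alone barred a locus, and -0.140 to 0.0240 with 1 library left out. Between fiPSC and SSCiPSC (-0.0995) it became 0.0226, and -0.149 to -0.00898. Between fiPSC and SSC (-0.149) it reversed to 1.51, became -0.00581 with FPKM times length, a smaller scale on which SSC held 0.0173% and fiPSC 0.0115%, and -0.291 without the 10 most abundant loci, and ran from -0.210 to -0.0755. The cause of these moves was not tested.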
